A study of Mus musculus with 884 samples.

Results

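The cells described here were the 50 single cells taken from S phase on day 3 (d3) of a differentiation of mouse embryonic stem cells, out of 884 cells in the series. They were chosen by their titles, which name day 3 and a sorting gate within S phase; 6 further d3 cells were sorted from G1. Every cell was profiled by single-cell Repli-seq, in which the genome of 1 sorted cell is amplified and sequenced, and each 80 kb bin of autosomes 1 to 19 is called replicated or not yet replicated from its copy number. The series holds 805 S-phase cells in 8 states, namely d0, d2, d3, d4, d5, d6, d7 and epiblast stem cells (EpiSCs).

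All d0 to d7 cells came from CBMS1, a female CBA/MsM hybrid line. The d0 cells were kept in 2i/LIF medium. The line was turned into epiblast-like cells over 2 days and then grown as floating aggregates in plain GK15 medium with no factor added, so the d3 cells came from the first part of the aggregate culture, and the line reaches neurectoderm at d7 according to the submitters. The EpiSCs are a separate female culture kept in Activin/FGF. No culture or aggregate was named for any cell, so d3 counted as 1 sample, cells were not used as replicates and no test between states was run. The calls carry no gene expression, so the cell type named by the labels could be checked only through replication itself.

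Replication of a mammalian genome follows a reproducible order through S phase. Long stretches of DNA, known as replication domains, fire together, with gene-rich, open chromatin as a rule first and gene-poor, lamina-bound chromatin last. Each cell type has its own version of this order, and parts of it move during the exit from naive pluripotency. A cell caught in mid-S phase therefore shows a mosaic of replicated and unreplicated domains, and cells caught at successive points of S phase can be lined up to read the whole program.

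The replication score, the percentage of a cell's called bins that were replicated, placed the d3 cells along S phase. It ran from 0.630% to 99.96% over the 50 cells, and 39 cells lay between 5 and 95%, with 4 at or below 5% and 7 at or above 95%. The gates, named for a percentage of S phase, followed the score only loosely. The 8 cells of the 25perS gate had scores from 0.659% to 42.4% with a median of 18.6%. In the 35perS gate the 9 cells ran from 4.85% to 56.2% (median 35.2%), and in the 45perS gate the 5 cells ran from 0.630% to 59.4% (median 36.96%). The 9 cells of the 55perS gate spanned 9.87% to 81.2% (median 67.1%). In the 65perS gate the 9 cells spanned 59.4% to 99.96% (median 85.5%), and in the 75perS gate the 10 cells spanned 49.9% to 99.8% (median 93.4%). The medians rose from gate to gate, while neighbouring gates overlapped in every case. S phase was not sampled evenly: no d3 cell had a score between 20.4% and 33.3%, a gap of 12.95 points, and none between 42.4% and 49.9%.

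**Figure D1:**
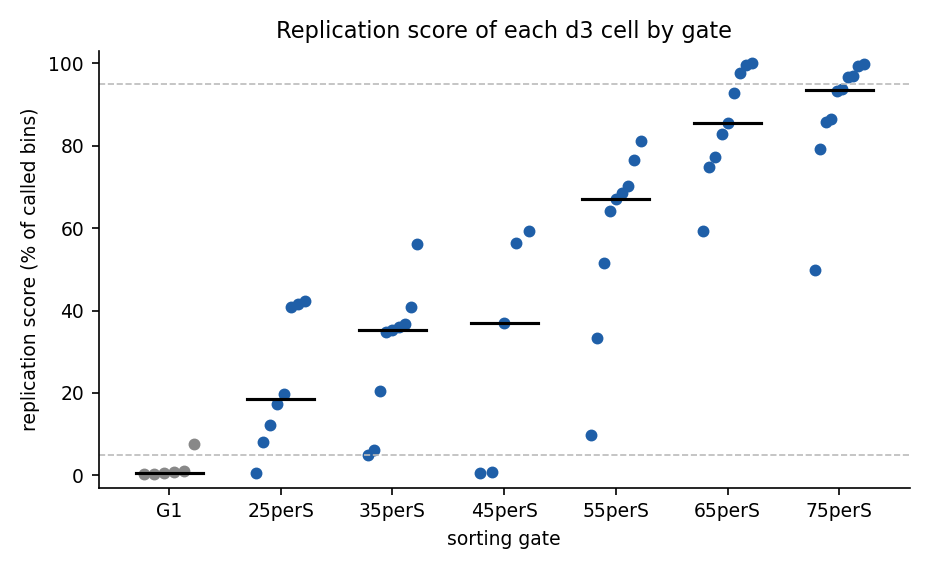
Replication score (% of called autosomal bins that were replicated) of each of the 50 d3 S-phase cells and the 6 d3 G1 cells, by sorting gate; each point is a cell, bars are medians, and dashed lines mark 5 and 95%. Gate medians climb from 18.6% to 93.4%, single cells stray far from their gate, and 1 of the G1 cells lies at 7.52%.

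Between 27791 and 29589 of 30890 bins were called in 49 of the 50 cells, while cell 23 had 4355. Cells are numbered within d3 by accession. All d3 cells were corrected by the authors with 1 merged control made from d3 G1 cells 2 and 6, and cells of other states with controls of their own, so a difference between d3 and another state and a difference between their controls cannot be told apart. The d3 G1 cells give the background of replicated calls: 0.319%, 0.433%, 0.679%, 0.737% and 1.04% in 5 of them, and 7.52% in cell 3. In that cell 46.9% of the replicated bins lay on chromosome 6, 31.98% on chromosome 12 and 14.9% on chromosome 8.

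Within the 39 cells scored 5 to 95%, each bin's calls were fitted by a logistic curve along the score. The fit gave the bin a midpoint, the score at which 50% of cells had replicated it, and a span, the range of score over which the share rose from 25 to 75%. A midpoint could be fitted for 29551 bins. Midpoints under 40 were classed as early, 40 to 60 as middle and above 60 as late. At d3, 11584 bins were early (39.2%), 6621 middle (22.4%) and 11346 late (38.4%). The early share was 39.6% at d2 and 38.2% at d4, and the late share 39.7% and 38.4%.

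Each d3 cell was then set against the order fitted without it, and the order held in nearly all of them. In the 5 cells scored under 20%, leaving out the shallow cell 23, between 14.7% and 43.6% of early bins were already replicated, against 0.501% to 6.205% of middle bins and 0.247% to 3.45% of late bins. The 7 cells scored 20 to 40% had replicated 48.3% to 81.5% of the early class, with a median of 75.5%, and a median of 19.2% of the middle class. In the 10 cells scored 40 to 60%, the medians were 92.9% of early bins, 48.1% of middle bins and 7.00% of late bins. Late bins filled in from there. Their median was 30.8% in the 7 cells scored 60 to 80% other than cell 39, and 67.1% in the 8 cells above 80%, where early bins stood at 99.7% and middle bins at 99.1%. At scores of 40 to 60%, then, most of the early class was replicated (80.9% to 98.2% by cell) and little of the late class (3.71% to 15.7%).

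**Figure D2:**
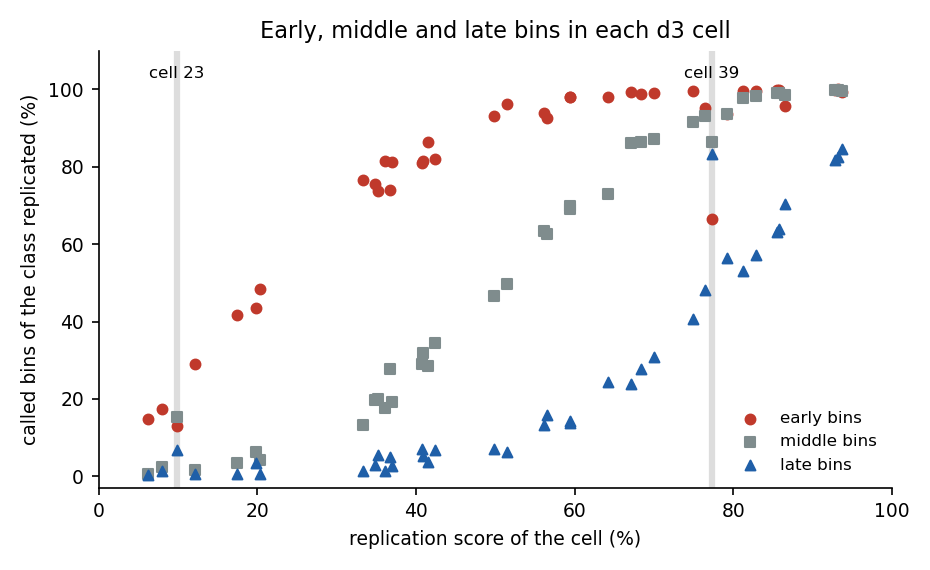
Percentage of called early, middle and late bins that were replicated in each of the 39 d3 cells scored 5 to 95%, against the cell's score; classes come from midpoints fitted without the cell plotted, and grey bands mark cells 23 and 39. The 3 classes fill one after another along the score, and cell 39 has more of its late bins (83.3%) than of its early bins (66.4%) replicated.

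Cell 39, of the 65perS gate with a score of 77.3%, broke this order. It had replicated 66.4% of early, 86.3% of middle and 83.3% of late bins. The area under the curve (AUC) with which the midpoints separated its replicated from its unreplicated bins was 0.372, where 0.5 is no order and 1 a perfect one. Its 29467 called bins were no fewer than in other cells, and the authors' sample information did not mark it. Cell 23 had an AUC of 0.643 from its 4355 bins. In the other 37 cells the AUC lay between 0.842 and 0.961, and it was above 0.9 in 27 of the 39.

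The share of calls that were out of order in a cell, given its score, had a median of 12.6% over the 39 cells and ran from 5.42% to 35.5%. It was 11.7% at d2 and 10.4% at d4. By score, the d3 median was 12.4% in cells scored 20 to 40%, 14.4% at 40 to 60% and 7.97% at 80% or more. In the 10 mid-S cells of d3 the range was 11.7% to 17.3%, against 10.2% to 14.8% in 29 d2 cells and 9.82% to 16.7% in 13 d4 cells with medians of 11.8% and 11.6%. In this band the ranges overlapped, with d3 shifted up. Under 20% the d3 median was 10.2%, against 11.6% at d2 and 6.36% at d4. At 20 to 40% the d2 and d4 medians were 12.3% and 10.3%. At 60 to 80% the medians of d3, d2 and d4 were 13.8%, 11.8% and 11.7%. At 80% or more those of d2 and d4 were 9.31% and 7.92%. The d3 order rested on fewer cells, and the part of cell number was not tested.

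Set against the midpoints of all 8 states, 37 of the 39 d3 cells were ranked best by the d3 order fitted without them. The exceptions were cell 41, ranked best by d4 (AUC 0.849 against 0.842 for d3), and cell 23, ranked best by EpiSCs (0.644 against 0.643). Cell 39 counted among the 37, with an AUC of 0.372 for d3 and 0.309 to 0.342 for the other states. All of these values lay below that for no order, so no state's order fitted cell 39. The median AUC of the d3 cells was 0.925 with the d3 order, 0.900 with d4, 0.895 with d2, 0.893 with d0, 0.877 with EpiSCs and 0.851 with d7. The shared control of the d3 cells enters this comparison as well.

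The first bins to replicate were read from the 7 cells scored 5 to 30% (6.17% to 20.4%), as bins replicated in at least 80% of them. There were 1262 such bins (4.26% of 29596), and 84 runs of at least 5 adjacent bins (400 kb) formed first regions with a median length of 560 kb and a longest of 1600 kb. The 6 named are those with the highest mean share. They were chr11:77200001-78160000, chr7:133920001-134800000, chr4:148400001-149120000, chr4:132080001-132720000, chr5:121600001-122240000 and chr6:72320001-72880000 (mm9 coordinates throughout). Each was replicated in 6 of the 6 cells that had a call there, a count fixed by the choice of these regions on the same cells and so a description only. Their d3 midpoint was 0, the lower end of the scale. No d3 G1 cell had a replicated call in any of the 6. All 6 were early in the other 7 states too, with midpoints of 6.51 to 15.4 at d2 and 0 to 6.97 at d4. In the G1 cells of d2 and d4, unlike those of d3, 8.89% to 20% and 12% to 16.7% of calls in these regions were replicated.

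The last bins were those replicated in at most 20% of the 13 cells scored 70 to 95%. They numbered 1073 (3.64% of 29494), in 87 last regions with a median length of 720 kb and a longest of 2240 kb. The 6 most extreme lay at chr14:109440001-111200000, chr1:98000001-98800000, chr6:44160001-44960000, chr6:18960001-19680000, chr9:33440001-34080000 and chr12:95280001-96800000. More than 50% of each was replicated in 0 of 13 cells, which the choice fixed, and also in 0 of all 38 or 39 d3 cells with a call. Their midpoints in the other states varied. The region on chromosome 14 had midpoints of 92.7 to 99.8 across all 8 states. On chromosome 1 the midpoint was 100 at d3, 83.99 at d0 and 84.15 at d7. The region on chromosome 9 had midpoints of 97.9 at d3 and 94.8 at d0, but 85.4, 78.2, 72.3 and 69.8 on the days from d4 to d7, and it alone of the 6 had a midpoint under 80 in any state. In the d3 G1 cells, 16.7% of calls in both chromosome 6 regions and 14.9% in the chromosome 12 region were replicated, chromosomes on which G1 cell 3 had many such calls.

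By chromosome, the mean d3 midpoint was lowest on chromosome 11 at 37.9 and highest on chromosome 16 at 59.3. Chromosome 11 also held the largest share of first bins (10.99%), followed by chromosome 19 (8.41%), and chromosome 16 the largest share of last bins (8.43%). Chromosome 13 had last bins in 0.139% of its length. The d3 mean lay outside the range of the other 7 states on 8 of 19 chromosomes, later on chromosomes 9, 12, 16, 18 and 19 and earlier on 3, 6 and 7. It did so by 2 points or more on chromosome 12 (56.1 at d3, 48.9 to 53.4 elsewhere) and chromosome 3 (56.4, 58.4 to 60.9), and by 0.0215 to 1.33 points on the others. On every chromosome some state is highest and another lowest, so part of the count of 8 falls to any state. The same count was not made for the other states. Both chromosome ends were mixed: the first 62 fitted bins had a mean midpoint of 9.83 on chromosome 19 and 68.7 on chromosome 3, and the last 62 had 11.2 on chromosome 15 and 79.8 on chromosome 18.

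The chromosomes were also read cell by cell, from the same calls. For each d3 cell, the replicated share of each autosome was compared with the share expected from the mean d2 and d4 order at that cell's total. Of 741 such values, 713 (96.2%) lay within 10 points of the order. Over the 37 cells with an AUC of at least 0.8, chromosome 11 was below the order in 33 cells (median difference -3.30 points) and chromosome 12 in 32 (-2.60). Chromosome 3 was above it in 33 cells (3.63 points), and chromosomes 6 and 1 each in 31. The order was used as a strict ranking. Out-of-order calls alone can therefore lower the share of a mostly early chromosome and raise that of a mostly late one. Their part in these differences was not tested, and no shift at d3 is read from them. The mean midpoint of chromosome 11 was 37.9 at d3, 38.1 at d2 and 35.3 at d4.

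A few cells departed by a whole chromosome. In cell 41 (score 79.2%) 4.03% of chromosome 8 was replicated, where the order gave 72.7%. In cell 7 (score 42.4%) it was 1.67% against 41.9%. In cell 2 (score 19.9%) 59.7% of chromosome 16 was replicated, against 14.7%. Cell 23 was off on chromosomes 3 and 11 with 497 and 57 called bins. Whole-chromosome differences of 30 points or more from a state's own order occurred in 4 of 39 d3 cells (10.3%), 7.62% of d2 cells, 4 of 45 d4 cells (8.89%) and 12.2% of d7 cells. The shares were lower at d0 (3.82%), d5 (4%) and d6 (1.92%), and 0 of 63 EpiSCs had one.

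**Figure D3:**
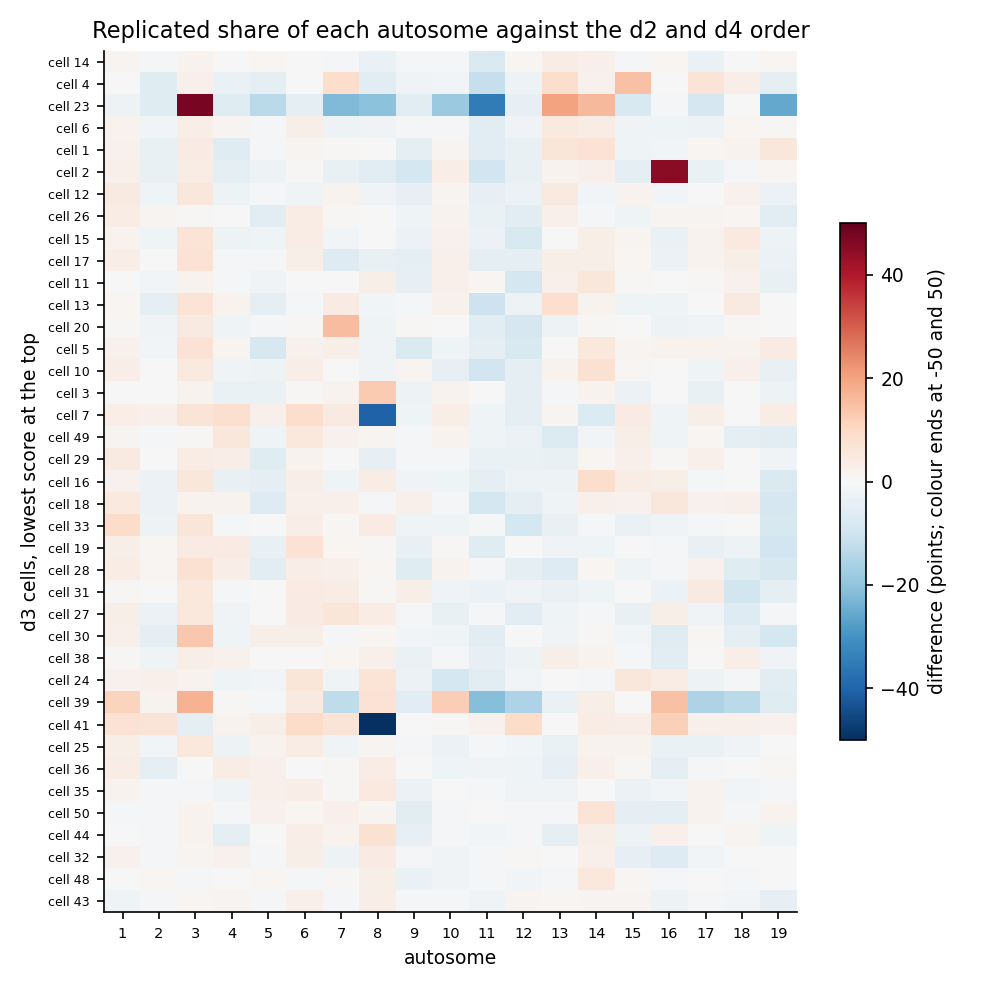
Difference, in points, between the replicated share of each autosome in each of the 39 d3 cells and the share given by the mean d2 and d4 order at the cell's total; rows are cells from the lowest score (top) to the highest, columns autosomes 1 to 19. Most squares are pale; cell 23 on chromosomes 3 and 11, cell 2 on chromosome 16, and cells 7 and 41 on chromosome 8 stand out.

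Along each chromosome of a d3 cell, replicated and unreplicated runs alternated, and the number of switches between them followed the score. The 7 cells scored 20 to 40% had a median of 2169 switches (range 1863 to 3380), or 73.5 per 1000 pairs of neighbouring called bins. The 10 cells scored 40 to 60% had a median of 2014 (1643 to 2655), or 68.3 per 1000. The median fell to 46.5 per 1000 in the 8 cells scored 60 to 80% and to 24.9 in the 8 cells above that. In cells under 20% it was 47.95 per 1000, or 51.2 without the shallow cell 23, which had 3 switches. Switches were thus frequent through the first part and the middle of S phase and rarest near its end.

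The lengths of the runs moved in opposite ways. The median replicated run in a cell was 480 kb at scores of 20 to 40%, 720 kb at 40 to 60%, 1280 kb at 60 to 80% and 2640 kb above 80%, as the median over cells. Unreplicated runs changed less, with medians of 800, 720, 640 and 600 kb in the same bands. The longest replicated run of a cell had a median of 5280 kb in the first of these bands and 51520 kb in the last. In the most advanced cells, therefore, unreplicated islands of about the size of a single domain remained in long replicated stretches: cell 43, at a score of 93.7%, had a median unreplicated run of 560 kb and a median replicated run of 5280 kb.

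At scores of 20 to 60%, d3 cells switched more often than most d2 and d4 cells. Of the 6 d3 cells under 20%, 0 were above the d2 median of 69.8 per 1000, while 4 were above the d4 median of 38.7. At scores of 40 to 60%, the 10 d3 cells ranged from 55.8 to 90.003 switches per 1000 pairs, the 29 d2 cells from 44.9 to 62.1 (median 55.6) and the 13 d4 cells from 47.2 to 85.9 (median 55.8). All 10 d3 cells were above the d2 median and 8 were above the highest d2 cell; 9 were above the d4 median and 2 above the highest d4 cell. At 20 to 40%, all 7 d3 cells were above the d2 median of 59.5 and above the highest of 8 d4 cells (59.7), although no d3 cell exceeded the highest d2 cell (134.8). The median scores in that band were 35.2% at d3, 30.7% at d2 and 25.7% at d4, and thus not alike. At 40 to 60%, the median replicated and unreplicated runs were 720 and 720 kb at d3, 800 and 880 kb at d2 and 800 and 800 kb at d4. At 20 to 40% they were 480 and 800 kb at d3, 560 and 960 kb at d2 and 480 and 960 kb at d4. Read depth was not used here, and its part in the number of switches was not tested.

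**Figure D4:**
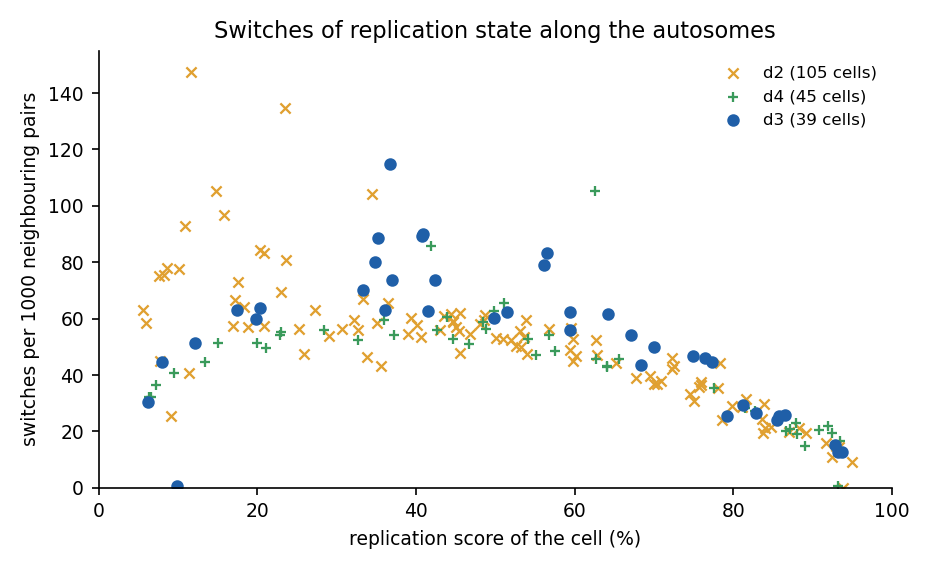
Switches between replicated and unreplicated runs per 1000 neighbouring pairs of called bins against the cell's score, for the d3, d2 and d4 cells scored 5 to 95%; each mark is a cell. Between scores of 33 and 60% most d3 cells lie above most d2 and d4 cells. A d2 cell at 104.2 and a d4 cell at 85.9 are above most d3 cells there. The low point at a score of 9.87% is the shallow cell 23.

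Switches were spread over the genome. Over the 39 cells there were 60899 switches in 5961 windows of 400 kb. A window held switches in a median of 8 cells, 27 windows held none, and the 10% of windows with most switches held 20.2% of them. With the window free to slide, the 4 places where most cells switched lay on chromosomes 5, 3 and 6. At chr5:10720001-11120000, 34 of 39 cells switched, between flanks with midpoints of 100 and 2.55. At chr3:150880001-151280000 it was 32 cells (midpoints of 99.6 and 25.4 on either side), at chr6:74000001-74400000 29 cells (62.9 and 89.7), and at chr5:14640001-15040000 28 cells (65.6 and 27.9). The d3 G1 cells were not empty there: 84.4% of their calls in the first window and its right flank were replicated. The share was 13.04% at the chromosome 3 place and at the other chromosome 5 place, and 25.4% on chromosome 6. At the first place both flanks were late at d2 (92.9 and 85.5) and at d4 (100 and 92.6).

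Joined along the chromosomes, the d3 midpoints formed 1020 early, 1793 middle and 905 late domains. Early and late domains both had a median length of 560 kb, and 298 and 286 of them exceeded 1 Mb. The longest early domain lay at chr17:24960001-36400000 (11440 kb) and the longest late one at chr14:88000001-95200000 (7200 kb). The profiles of d2 and d4 were less divided, with 794 and 779 early domains and 702 and 704 late ones, and late domains up to 13280 kb at d2 and 12640 kb at d4. The d3 profile rested on 39 cells and those of d2 and d4 on more; the part of cell number in the division was not tested.

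The spread between cells within a bin was moderate. The span from 25 to 75% had a median of 12.0 points in early bins with midpoints of 10 to 40, 16.5 points in middle bins and 13.4 points in late bins up to 90. The middle class had the widest spans at d2 as well (17.03 points), while at d4 the late class did (15.1 against 14.3). The tail was larger at d3. Spans of 25 points or more occurred in 15.2% of bins with midpoints of 10 to 90, against 9.50% at d2 and 8.16% at d4. Among bins with d3 midpoints of 30 to 70, 2035 of 14075 (14.5%) were that wide, and they formed 84 regions. The d3 fits rested on 39 cells, with cells 23 and 39 among them, and those of d2 and d4 on more. The part of cell number and of those cells in the tail was not tested.

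The 4 widest of these regions, chosen by their d3 span, were replicated in some cells at low scores and unreplicated in some at high scores. At chr10:79840001-80320000 the span reached 80 points, the upper limit of the fit: 3 of the 7 cells with the lowest scores had replicated it, 8 of 16 cells scored 33 to 60% and 9 of 15 above 60%. This region had a midpoint of 43.3 at d3 but 12.5 at d2 and 0 at d4. At chr7:32960001-33360000 the span was also 80 points, with calls in only 23 of 39 cells, and 2 of 5, 7 of 12 and 2 of 6 cells replicated; 44.4% of the G1 calls there were replicated. At chr3:139680001-140800000 (span 58.7 points) replicated cells went from 1 of 7 to 6 of 16 and 12 of 16. At chr6:68640001-69040000 (55.98 points) they went from 1 of 7 to 11 of 16 and 14 of 16, with 34.5% of G1 calls replicated. These last 2 were at least as wide at d2, with spans of 63.95 and 60.7 points, and the region on chromosome 10 had a span of 55.3 points at d7. With all S cells in the fit, the d3 spans on chromosomes 3 and 6 were 44.2 and 44.7 points.

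Pairs of d3 cells within 5 points of score called a median of 81.1% of bins alike. Kappa, the agreement beyond that given by the cells' scores alone, where 1 is full agreement and 0 none beyond it, had a median of 0.555 over 76 pairs, which share cells. Of the 9 pairs with a kappa under 0.4, 7 involved cell 23 or cell 39. The lowest, -0.0612, joined cells 38 and 39. The highest, 0.671, joined cells 29 and 49, sorted from the 55perS and 75perS gates at scores of 51.5% and 49.9%. In mid-S phase (mean score of 40 to 60%) the median kappa was 0.588 in 15 d3 pairs, 0.672 in the d2 pairs and 0.667 in 33 d4 pairs. The d3 pairs ranged from 0.511 to 0.671 and the d2 pairs from 0.559 to 0.730, so the ranges overlapped with the d3 pairs lower. Above 80% the order was the other way, with medians of 0.537, 0.452 and 0.456.

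Across bins, the d3 midpoints correlated most with those of d2 (r = 0.904) and d4 (r = 0.894), then with d0 (0.875), d5 (0.845), EpiSCs (0.838), d6 (0.799) and d7 (0.784). Bins share cells and are not independent replicates. The d2 and d4 profiles, on either side of d3 in time, correlated better with each other (0.926) than either did with d3. Of the early bins at d3, 87.3% were early at d2 and 84.6% at d4; of the late bins, 88.7% and 84.9% were late. Bins that were early at d3 and late at d2 numbered 220, and 54 were late at d3 and early at d2; for d4 the numbers were 330 and 52.

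Between d2 and d3, the midpoint moved earlier by 20 points or more in 1177 bins (3.98% of those compared) and later in 851 (2.88%). From d3 to d4, 1101 bins (3.73%) moved earlier and 1324 (4.48%) later. The comparisons share the d3 cells, and the counts are not set against the share that noise in the fits alone would give. The d2-to-d3 earlier bins, chosen on d2 and d3, averaged 61.4 at d2, 30.7 at d3 and 55.9 at d4. The later bins averaged 23.7 at d2, 49.9 at d3 and 35.4 at d4. The d4 mean, which the choice did not use, lay near the d2 mean for the earlier bins. For the later bins it lay between the means of d2 and d3, near those of the other states left out of the choice. Those states had means of 33.6 (d0) to 35.3 (EpiSCs) in the later bins, and 56.8 (EpiSCs) to 63.8 (d7) in the earlier ones. The choice rests on the d2 and d3 values themselves, so the d2 and d3 means are descriptions only, and no lasting delay is read from the d4 mean. In the d3 G1 cells, 8.77% of calls in the earlier bins were replicated, 0.554% in the later bins and 1.62% over all bins. The part of this background in the shifts was not tested; without the 294 bins replicated in 2 or more of the 6 G1 cells, 1044 bins were earlier and 850 later.

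The shifted regions named here were chosen on the calls counted below, so their cell counts are descriptions. The earlier shifts with the largest differences lay in short regions that were late at d2 and d4. At chr14:7280001-7760000 the midpoint was 92.8 at d2, 9.33 at d3 and 90.7 at d4. Among cells scored 33 to 71%, 0 of 40 d2 cells, 17 of 17 d3 cells and 1 of 20 d4 cells had replicated it. All 34 calls of the d3 G1 cells there were replicated as well, and none in the d2 or d4 G1 cells. At chr5:10800001-11520000 the midpoints were 89.1, 9.95 and 93.7, and 38 of 40 d3 G1 calls were replicated. At chr7:7200001-7600000 they were 80.8, 14.6 and 78.03, with 57.1% of G1 calls replicated, and at chr14:41840001-42560000 they were 84.7, 18.3 and 68.7, with 29.2%. Without the bins replicated in 2 or more G1 cells, the last of these regions moved by -35.7 points from d2 to d3 in place of -66.4, and the other 3 had no bin left. These places were thus replicated in d3 cells sorted as G1 too, and they count as uncertain.

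The later shifts were of another kind. At chr15:78400001-79280000 the midpoint was 15.7 at d2, 51.3 at d3 and 4.24 at d4. The region was replicated in 46 of 46 d2 cells scored 33 to 71%, 12 of 20 d3 cells (60%) and 18 of 20 d4 cells. At chr12:101040001-101440000 the midpoints were 16.8, 55.4 and 12.0, and 45 of 46, 9 of 20 and 20 of 20 cells had replicated it. At chr10:79920001-80320000 they were 10.8, 44.9 and 0. The median scores in this band were 49.4% at d2, 46.1% at d3 and 50.5% at d4. No d3 G1 call was replicated in these 3 regions; in the d2 G1 cells 4.55% to 32% of calls were, and in the d4 G1 cells 12.2% to 20%. The region at chr18:44800001-45280000 differed from these in that its midpoint stayed above the d2 value in every later state. Its midpoint was 40.97 at d0 and 36.8, 70.4 and 56.95 at d2, d3 and d4. It was then 43.4, 56.5 and 52.4 from d5 to d7 and 58.7 in EpiSCs. The d2 value, which helped to choose the region, was its lowest, and the d5 value lay near that of d0. No lasting delay is read from it.

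**Figure D5:**
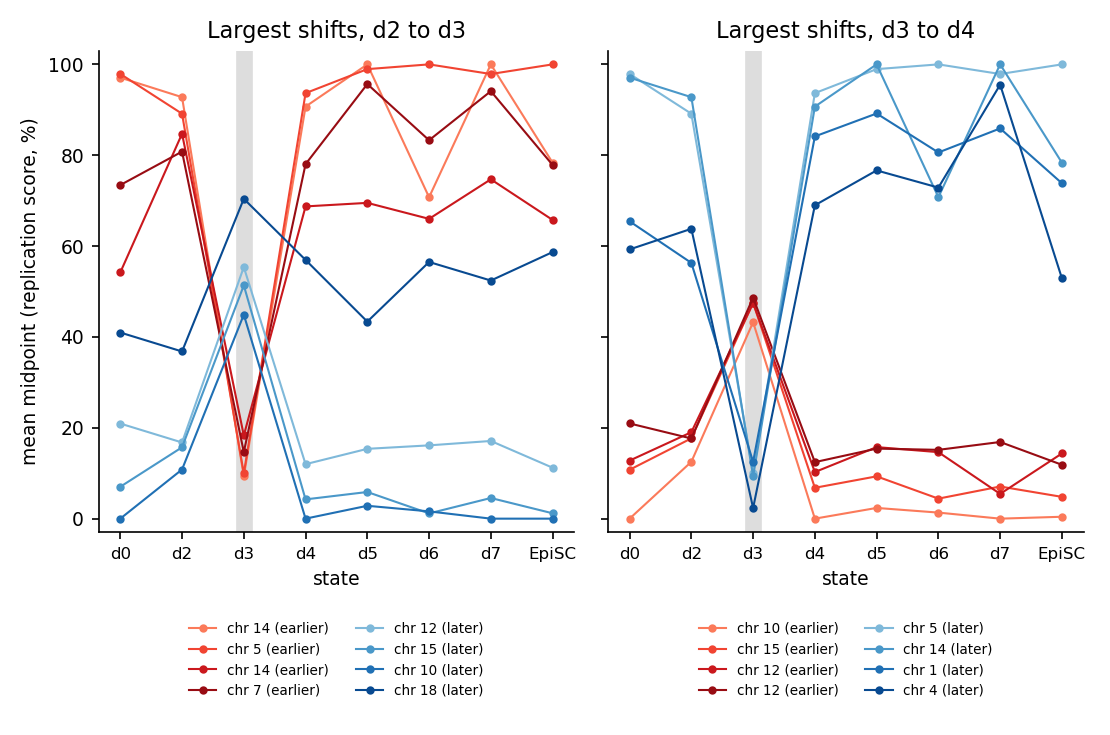
Mean midpoint (replication score at which 50% of cells had replicated the region) of the 4 largest shifts in each direction, from d2 to d3 (left) and from d3 to d4 (right), in all 8 states; the grey band marks d3, red lines are earlier and blue lines later in the second state. The lines on chromosomes 5, 7, 10, 12, 14 and 15 leave the level of the other states at d3 and return at d4; the values of the states named in each panel chose the regions.

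From d3 to d4, a comparison that uses the same d3 cells, the regions on chromosomes 10 and 15 led the earlier shifts. With them, 2 regions on chromosome 12 became earlier: chr12:85280001-85760000, with midpoints of 19.03 at d2, 47.5 at d3 and 10.3 at d4, and chr12:100960001-101600000, with 17.6, 48.6 and 12.4. The d3 spans of these 2 were wide as well, at 42.6 and 31.2 points. The later shifts were led by the chromosome 5 and 14 regions, with which chr1:84960001-85360000 (56.3, 12.5 and 84.1) and chr4:60080001-60560000 (63.8, 2.33 and 68.98) became later. In the last of these all 34 calls of the d3 G1 cells were replicated, and on chromosome 1 it was 7 of 14.

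Within d3, cells differed in how many of the shifted places on chromosomes 10, 12 and 15 they had replicated. The 4 places were taken from both comparisons, with midpoints under 40 at d2 and d4. A place counted as replicated in a cell where more than 50% of its called bins were. Of the 22 d3 cells scored at least 49%, 9 had replicated all that were called and 7 lacked 1. Cells 16, 18, 24, 39 and 44 lacked 3 or more of the 4, and they held 18 of the 27 place-and-cell values that were unreplicated. Since these cells were picked for lacking the places, their share of the values is a description only. Their scores ran from 56.2% to 86.5%. Among the 10 cells scored 33 to 43%, 5 lacked 3 or more and 0 had replicated all 4. Cell 44, at 86.5%, had replicated 0% of the place on chromosome 10 and 6.25% of that on chromosome 15, whereas cell 35, at 85.5%, had replicated all 4. The AUC of these 5 cells was 0.914, 0.898, 0.869, 0.372 and 0.854, against a median of 0.925. The places and the limit of 49% were chosen after the values were seen.

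Against d0, 2272 bins (7.69%) were earlier at d3 by 20 points or more and 1665 (5.64%) later. This split was turned by the measure: by the share of replicated cells among those scored 40 to 70%, with a difference of 0.3 or more, 1494 bins were earlier and 2599 later. The leading earlier regions were again those on chromosomes 5, 14 and 7. Added to them was chr7:15280001-15760000, with midpoints of 89.9, 96.2, 31.4 and 96.5 from d0 to d4 and 20% of d3 G1 calls replicated. Among the later ones, chr4:52880001-53600000 had moved before d3 and held its place. Its midpoint was 16 at d0, then 53.8, 58.5 and 52.7 from d2 to d4 and 47.6 at d7, with a narrow span at d3 (8.44 points) and no replicated G1 call. It was replicated in 68 of 71 d0 cells scored 33 to 71% and in 4 of 20 d3 cells (20%). At chr12:81600001-82000000 the midpoints from d0 to d4 were 0, 11.4, 38.2 and 16.8.

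Toward d7, 3248 bins (11.0%) became earlier and 3302 (11.2%) later than at d3, and relative to EpiSCs 2580 (8.73%) were earlier and 2393 (8.10%) later in EpiSCs. The share of cells scored 40 to 70% gave 4031 earlier and 2740 later bins for d7, and 3744 and 2098 for EpiSCs. The balance of earlier and later bins toward d7 was turned by 7 of 8 alternatives, so no side is read from it. Some of the leading regions changed over several days after d3. At chr10:83200001-84000000 the midpoints in day order from d0 were 39.5, 47.65, 59.8, 49.96, 40.15, 14.5 and 19.5, so that d3 was its latest day. It was replicated in 3 of 20 d3 cells scored 33 to 71%, 24 of 46 d2 cells and 11 of 20 d4 cells. At chr12:117840001-118800000 the midpoint was 40.6 at d0, 62.98 at d3, 43.3 at d4 and 24.6 at d7. In the other direction, chr4:146640001-147040000 was early until d3 and late from d5, with midpoints in day order of 0, 20.8, 8.97, 42.4, 72.6, 86.7 and 100. All 19 d3 cells with a call had replicated it, as had 45 of 46 d2 cells and 13 of 20 d4 cells, and no d3 G1 call was replicated. The other leading d3-to-d7 regions were, or overlapped, those on chromosomes 4, 5, 10, 14 and 15 described above.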

How the data were processed

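The members and the region rules were chosen with earlier results of these data known. The values analysed are a score that the authors deposited for each cell and 80 kb bin (mm9), in which 1 marks a replicated bin, -1 an unreplicated bin and 0 a bin without data; a merged G1 control was used for each cell, per the file headers. They also deposited the replication score as a fraction; recomputed here as a percentage, it differed by at most 5.00e-08 points. The submitters' processing notes name BWA 0.7.10-r789, Picard and cutadapt. Groups came from the titles; 7 cells with conflicting labels were left out.

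Midpoints were fitted by maximum likelihood on a fixed grid, with 1% of calls taken as wrong, in bins called in at least 50% of cells. Runs bridged gaps of up to 5 bins without data. Named regions were the 6 first and 6 last, the 4 widest, the 4 main switch places, and the 4 largest shifts in each direction for d2 to d3, d3 to d4, d0 to d3 and d3 to d7. The steps were tested on simulated data. For the shifts, every simulated bin had the same span and no cell departed from the order, so wide bins and disordered cells were outside that test. The share of unchanged bins that noise in the fits alone would shift is not given here. Alternatives covered the bin filter, score limits, fit, thresholds, gaps, score matching and the authors' filter marks; those without 2 cells, without departing chromosomes and without bins replicated in G1 were added after seeing the data. Python 3.11.15, numpy 2.4.6, pandas 2.3.3, scipy 1.17.1 and matplotlib 3.10.9 were used. Haplotype-resolved chromosome X calls were not used here, and genes were not placed on bins, since no annotation of build mm9 was used.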

Additional observations from a re-analysis of the deposited data

Results flagged for a closer look

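Within each sorting gate of 4 to 10 d3 cells, the score, the number of called bins and the AUC were examined for a cell far from the rest, in 19 groups of values; chance gives such a gap in about 1 of 20 groups. There were 8. In the 55perS gate cell 23 had 4355 called bins (next lowest 29442) and an AUC of 0.643 (next 0.869). In the 65perS gate cell 39 had an AUC of 0.372 (next 0.928). In the 75perS gate cell 49 had a score of 49.9% (next 79.2%), with an AUC of 0.940. Called bins were low in cell 12 of the 35perS gate (29348, next 29496), cell 45 of the 75perS gate (29097, next 29356) and cell 1 of G1 (28421, next 29440). Among the 6 G1 cells, cell 3 had a score of 7.52% (next highest 1.04%).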

How the results depend on the processing

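No named shift, each chosen for its size on these cells, changed its sign, but the balance of earlier against later bins did. It turned under 1 of 8 alternatives from d0 to d3 (the share of cells), d3 to d4 (15 points) and d3 to EpiSCs (30 points), under 7 of 8 from d3 to d7, and under 0 of 8 from d2 to d3, where earlier bins made up 54.5% to 66.2%. Apart from the chromosome 3 and 6 spans and the chromosome 14 difference given above, the values that moved were lengths and numbers of first, last and shifted bins. Lengths are bins of 80 kb summed. First bins covered 100.96 Mb and last bins 85.84 Mb. With shares of at least 90% and at most 10%, they covered 36.08 and 42.16 Mb and formed 0.25 and 0.517 times as many regions. With cells scored 5 to 40%, first bins covered 156.88 Mb in 1.63 times as many regions, and with runs of at least 3 bins there were 2.17 times as many first regions. Earlier and later shifts covered 181.76 and 133.2 Mb from d0 to d3 (68.96 and 33.28 at 30 points, 303.36 and 260.24 at 15), and 94.16 and 68.08 Mb from d2 to d3 (28.64 and 14.64, 212.8 and 168.96). They covered 88.08 and 105.92 Mb from d3 to d4 (16.72 and 39.44, 217.44 and 195.84), 259.84 and 264.16 Mb from d3 to d7 (71.44 and 124.4, 424.64 and 396.96), and 206.4 and 191.44 Mb from d3 to EpiSCs (59.44 and 71.68, 366.72 and 314.8). By the share of cells scored 40 to 70%, 119.52 Mb were earlier and 207.92 Mb later from d0 to d3; the cause was not tested.

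The 3 alternatives chosen after seeing the data moved no length or count by over 1.5 times. All 32 named shifts kept their direction and at least 20 points in score-matched cells and without cells 23 and 39. Without bins replicated in G1, 12 had no bin left and the other 20 kept both. The shifts were chosen for their size on mostly the same cells, and several places are counted in more than 1 comparison. That they kept direction and size is therefore a description only. All d3 cells have 1 control, so keeping the most used control changed nothing. No paired analysis was possible because no test was run and cells of different days share only a number. Of the 39 cells, 7 scored 5 to 30%, so the earliest midpoints rest on few cells, and read depth per cell was not used.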

Other observations

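The authors' marks for filtered cells followed their headings only in part. The column headed for scores outside 5 to 95% marked none of the 11 such d3 cells and 5 d3 cells within those limits, while the column headed for outliers marked all 11. Score limits were therefore taken from the scores themselves.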
